A study of Mus musculus with 27 samples.

Results

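The comparison asks for which genes the loss of G9a changed polyribosome-associated mRNA by different amounts in the 2 kinds of striatal projection neuron. For every gene the mutant minus control difference in D1 neurons was subtracted from the same difference in D2 neurons, with saline and cocaine arrays weighted equally in each neuron type. A positive value therefore means that the mutant level moved further up, or less far down, in D2 neurons. All 27 arrays entered. Of 12017 genes tested, 119 (0.990%) had a difference that passed at a Benjamini-Hochberg adjusted p under 0.05 in limma, a linear model fitted to all genes at once. In 79 of them (0.657% of the genes tested) the value was higher in D2 neurons, and in 40 (0.333%) it was lower. At an unadjusted p under 0.05 there were 1474. The count moved with single arrays and with the model. It was 50 without replicate 1 and 72 without replicate 2 of the D1 control saline group, which held 2 arrays. It was 71 without replicate 2 of the D2 mutant saline group, 51 with the mean signal of glial markers as a covariate, 352 with arrays weighted by their fit, and 76 when a change of at least 1.5-fold was also asked for.

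Striatal projection neurons, or medium spiny neurons, divide into cells that express the dopamine receptor D1 and form the direct output pathway, and cells that express the dopamine receptor D2 and form the indirect pathway. G9a, the product of Ehmt2, is an enzyme that methylates lysine 9 of histone H3, a mark of silenced genes, and it is known for keeping genes of other lineages and developmental stages off. In translating ribosome affinity purification (TRAP), a GFP-tagged ribosomal protein is made in 1 cell type, and the mRNA bound to its ribosomes is pulled out of the tissue with antibodies to GFP.

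The arrays fell into 4 combinations of neuron type and genotype. D1 controls (6 arrays, 2 saline and 4 cocaine) were Drd1-TRAP; G9a fl/fl, and D1 mutants (7 arrays, 3 and 4) carried Drd1-Cre as well. D2 controls (7 arrays, 3 and 4) were Drd2-TRAP; G9a fl/fl, and D2 mutants (7 arrays, 3 and 4) carried Drd2-Cre as well. All were male mice of 2 to 5 months on a mixed C57BL/6 and 129/Sv background, and striatum was taken 2 hours after the last of 8 injections of saline or of cocaine at 20 mg/kg/day. Controls carried the floxed G9a alleles and the ribosome tag but no Cre, so the Cre transgene and the loss of G9a cannot be told apart. Tag and Cre were both driven by Drd1 or Drd2 regulatory sequence, and Drd2 is also expressed in cholinergic interneurons. In bulk samples of this kind fewer cells of a type and less RNA per cell cannot be told apart. Titles and genotype labels of the D2 mutant arrays write Drd-TRAP without a receptor number, and the source label of D2 mutant cocaine replicate 4 calls it a control. Without that array 87 differences passed, and 84 of them were among the 119.

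Each array gave 1 log2 signal per probe set, and the number of arrays limits the precision. The median standard error (SE) of the difference was 0.122 on the log2 scale, from 0.0891 for the effect in D1 and 0.0833 for the effect in D2 neurons. Ehmt2 ran from 9.95 to 10.74 (median 10.46) in D1 controls and from 8.03 to 9.37 (median 8.72) in D1 mutants. In D2 neurons it ran from 10.67 to 11.01 (median 10.76) in controls and from 8.68 to 9.38 (median 8.96) in mutants. Mutants lay below controls without overlap in both neuron types. The Ehmt2 effect was -1.79 in D1 and -1.82 in D2 neurons, and the difference of -0.04 ± 0.18 (SE) did not pass (limma, adjusted p = 0.971, 95% interval -0.42 to 0.34). A second, dimmer Ehmt2 probe set, with a mean level of 5.75 log2, gave smaller effects of -0.28 in D1 and -0.38 in D2 neurons. The 4 D1 control cocaine arrays correlated with each other less closely (lowest r within the group 0.971 to 0.975) than the arrays of the other groups did, where the lowest was 0.983. Ttr, the choroid plexus gene for transthyretin, was above 9.5 log2 in 1 D1 control, 1 D1 mutant and 1 D2 control array. Without those 3 arrays, an alternative chosen after seeing the data, 157 differences passed, 100 of them among the 119.

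The G9a effect passed for 507 genes (4.22%) in D1 neurons, 373 up and 134 down, and for 1470 genes (12.2%) in D2 neurons, 1011 up and 459 down. In D1 neurons the count was 319 without D1 control saline replicate 1. The median SE in D1 neurons was 1.07 times that in D2 neurons. In all, 353 genes passed in both, 352 of them in the same direction, which is 69.4% of the D1 calls and 23.9% of the D2 calls. Passing in 1 neuron type and not in the other is no test of a difference. Of the 1117 genes that passed in D2 and not in D1 neurons, 69 (6.18%) had a difference that passed, and of the 154 that passed in D1 and not in D2, 14 (9.09%) did. The 119 genes are described below by which effects passed. The effects and the difference come from the same arrays, so the classes are a description and add no evidence.

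**Figure D1:**
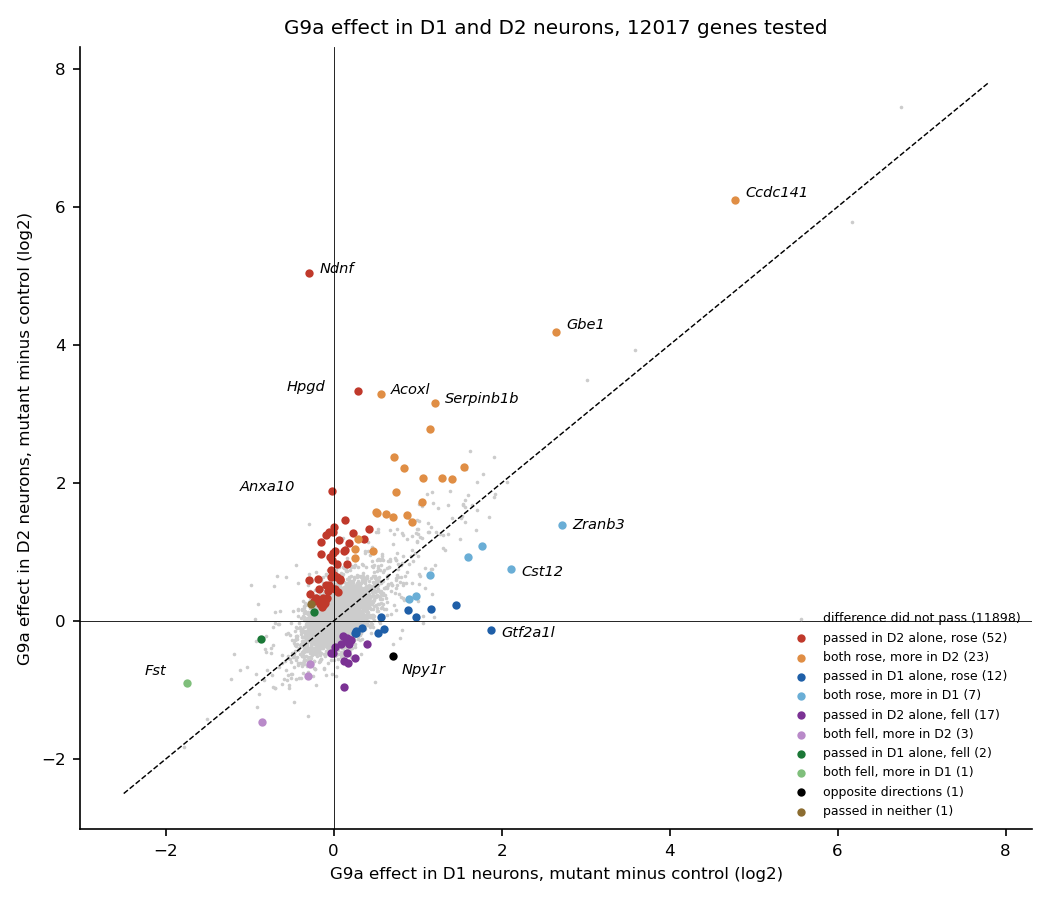
The plot sets the mutant minus control effect (log2) in D1 neurons (x axis) against that in D2 neurons (y axis) for each of the 12017 genes tested, with the dashed line at equal effects. Colours mark the 119 genes whose difference passed, by class, and Ndnf and Hpgd stand farthest above the line near an effect of 0 in D1 neurons.

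The largest class held 52 genes that rose in D2 neurons with no effect that passed in D1 neurons. Their differences ran from 0.35 to 5.33, and in 34 of them every D2 mutant array lay above every D2 control array. The class with effects up in both and larger in D2 neurons held 23 genes, with differences from 0.50 to 2.72, and D2 mutants lay clear of controls in all 23. Genes of these classes were chosen on the same arrays for a D2 effect that passed. Their lack of overlap adds no evidence, and its share over all genes tested is not given. In the opposite direction 12 genes rose in D1 neurons with no effect that passed in D2, and 7 rose in both but more in D1 neurons. Falls were fewer: 17 genes fell in D2 neurons alone, 2 fell in D1 neurons alone, 3 fell in both but more in D2, and 1 fell in both but more in D1. Npy1r passed in opposite directions, and Ctbp2 passed in neither. Of the 119, 113 have a gene name of the usual kind, and the other 6, with provisional symbols, are counted only. At the threshold, Hook2 was the last gene inside (difference -0.49, adjusted p = 0.0488) and Bnip2 the first outside (-0.39, adjusted p = 0.0509).

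Several of the leading genes were near the lower end of the signal range in controls. Of the 119 genes, 32 had a D2 control mean under 6 log2, against 5.64% of all genes tested; the filter asked for 3 arrays above 6 log2, so such a gene could pass only through a group where it was high, and the share is no result about them. No detection call was read, and signals under 6 log2 are not shown to be above background: for such genes effects are given on the log2 scale, with no fold, and those measured from such a level may understate the change. Because G9a acts on chromatin, the promoter windows of 5 leading genes are shown with their CpG dinucleotides in capitals: Hpgd and Anxa10 for a rise in D2 neurons alone, Acoxl for a rise in both that was larger in D2, Gtf2a1l for a rise in D1 neurons alone, and Zranb3 for a rise in both that was larger in D1. Each window is 300 bases from RefSeq (GRCm38.p6), written 5′ to 3′ along the gene. They lie at chr8:56294302-56294601 on the plus strand, chr8:62123144-62123443 on the minus strand, chr2:127854378-127854677 on the plus strand, chr17:88668410-88668709 on the plus strand and chr1:128102998-128103297 on the minus strand, in the order printed, and Zranb3 is shown by the first of its 2 windows.
Hpgd: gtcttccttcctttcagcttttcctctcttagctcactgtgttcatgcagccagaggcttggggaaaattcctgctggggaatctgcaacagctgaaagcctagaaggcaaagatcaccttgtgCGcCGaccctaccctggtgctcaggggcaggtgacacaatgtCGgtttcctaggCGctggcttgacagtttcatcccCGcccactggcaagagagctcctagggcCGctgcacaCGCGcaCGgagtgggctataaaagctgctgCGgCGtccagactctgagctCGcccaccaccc
Anxa10: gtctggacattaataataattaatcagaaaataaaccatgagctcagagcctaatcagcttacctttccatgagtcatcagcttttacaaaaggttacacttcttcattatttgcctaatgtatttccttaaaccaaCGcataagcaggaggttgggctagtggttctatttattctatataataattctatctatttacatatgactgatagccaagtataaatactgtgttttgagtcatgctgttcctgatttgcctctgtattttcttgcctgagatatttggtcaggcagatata
Acoxl: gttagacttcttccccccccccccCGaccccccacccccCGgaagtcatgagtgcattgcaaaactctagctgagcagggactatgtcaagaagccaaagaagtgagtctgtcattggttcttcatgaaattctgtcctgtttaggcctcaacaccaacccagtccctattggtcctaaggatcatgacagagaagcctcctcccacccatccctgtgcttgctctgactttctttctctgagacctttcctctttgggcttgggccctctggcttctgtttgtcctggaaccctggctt
Gtf2a1l: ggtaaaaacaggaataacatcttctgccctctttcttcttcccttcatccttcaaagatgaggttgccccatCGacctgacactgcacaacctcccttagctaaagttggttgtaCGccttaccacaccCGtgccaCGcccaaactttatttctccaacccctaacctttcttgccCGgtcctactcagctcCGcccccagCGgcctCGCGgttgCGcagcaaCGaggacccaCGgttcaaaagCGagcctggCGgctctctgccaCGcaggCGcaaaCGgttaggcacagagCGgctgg
Zranb3: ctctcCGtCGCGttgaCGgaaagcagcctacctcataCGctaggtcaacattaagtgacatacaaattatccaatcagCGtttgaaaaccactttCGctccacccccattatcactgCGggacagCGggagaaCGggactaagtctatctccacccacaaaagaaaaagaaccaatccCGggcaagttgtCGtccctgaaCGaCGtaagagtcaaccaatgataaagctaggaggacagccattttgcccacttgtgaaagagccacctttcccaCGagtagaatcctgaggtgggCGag
The 5 windows differ in CpG content. Hpgd holds 12 CpG, Anxa10 holds 1 and Acoxl 2, against 18 in Gtf2a1l and 16 in Zranb3. Over the 9709 tested genes with a window the median was 21 CpG, counted as the letters CG on the printed strand, which read the same on the other, and 8.30% held fewer than 5. Over all 27025 windows of the table, first window per gene, 38.3% held fewer than 5. Windows were found for 92 of the 119 genes, with a median of 16 CpG and 18.5% under 5. The 43 with a window in the class that rose in D2 neurons alone had a median of 20 CpG, the 16 that rose in both and more in D2 a median of 7, and the 7 that rose in both and more in D1 a median of 6. The 8 with a window that rose in D1 neurons alone, the class of Gtf2a1l, had a median of 6.50. These counts are a description of the windows.

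Ndnf, which encodes a secreted neuron-derived neurotrophic factor, had the largest difference of all genes tested. Its log2 signal was 4.43 to 5.02 (median 4.70) in D1 controls and 4.37 to 4.59 (median 4.44) in D1 mutants. In D2 neurons it was 5.01 to 5.70 (median 5.20) in controls and 9.74 to 10.86 (median 10.51) in mutants. All 7 D2 mutant arrays lay far above the other 20, and D1 mutants overlapped D1 controls. The effect in D2 neurons was 5.04 ± 0.12 (SE) on the log2 scale, from controls that all lay under 6 log2, and in D1 neurons, where all arrays lay under 6, it was -0.29 ± 0.13. The difference of 5.33 ± 0.17 passed (limma, adjusted p = 3.89e-17), and it was 4.99 in saline and 5.68 in cocaine arrays. Ndnf has 1 probe set among those tested.

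Hpgd, the dehydrogenase that breaks down prostaglandins and whose promoter is printed above, ran from 4.20 to 4.78 in D1 controls (median 4.52), 4.30 to 5.42 in D1 mutants (median 4.66) and 4.42 to 5.00 in D2 controls (median 4.83). In D2 mutants it ran from 7.59 to 8.65 (median 8.18), above all other arrays. The other 20 arrays were all under 6 log2. The effect was 3.33 in D2 and 0.29 in D1 neurons, and the difference was 3.04 ± 0.18 (limma, adjusted p = 2.71e-11). Its probe set carries the suffix _s_at, which Affymetrix gives to probe sets that match several transcripts. Anxa10, a member of the annexin family, stayed between 4.08 and 4.46 in D1 neurons of both genotypes. It ran from 4.33 to 5.00 (median 4.75) in D2 controls and from 6.33 to 6.93 (median 6.54) in D2 mutants, again without overlap. The difference was 1.90 ± 0.15 (adjusted p = 1.27e-08), with every array outside the D2 mutants under 6 log2.

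Bcor, a corepressor of BCL6 and part of a Polycomb complex, showed the same pattern from a higher level. Signals were 7.59 to 8.49 in D1 controls (median 8.42), 8.07 to 8.58 in D1 mutants (median 8.29), 9.02 to 9.92 in D2 controls (median 9.45) and 10.42 to 11.17 in D2 mutants (median 10.83). Bcor was thus already higher in D2 controls, and the D2 minus D1 gap was larger in mutants. Its difference of 1.36 ± 0.22 passed (limma, adjusted p = 8.69e-04), and 2 further probe sets gave 1.57 and 1.55, both passing. Gse1, a nuclear coiled-coil protein, had a difference of 1.34 ± 0.21 (adjusted p = 8.18e-04), with D2 mutants from 10.19 to 11.29 above D2 controls from 8.98 to 9.90, and 2 further probe sets passed at 0.89 and 0.77. Kazald1, a secreted protein with Kazal-type and immunoglobulin domains, had a difference of 1.34 ± 0.17 (adjusted p = 3.02e-05). It was 0.66 in saline and 2.01 in cocaine arrays, and the test of that drug dependence did not pass (adjusted p = 0.332).

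Among the same 52 genes 3 act in lineage choice or glia and belong to marker lists. Isl1, a homeodomain factor that directs the D1 neuron fate, ran from 10.04 to 10.87 (median 10.76) in D1 controls and from 10.46 to 10.80 (median 10.64) in D1 mutants, and from 6.52 to 7.58 (median 7.03) in D2 controls. In D2 mutants it ran from 7.82 to 8.29 (median 8.03), clear of D2 controls and still below every D1 array. The effect was 0.98 in D2 and -0.01 in D1 neurons, the difference was 0.99 ± 0.18 (limma, adjusted p = 0.00287), and a second probe set passed at 0.60. Lhx8, a factor of cholinergic interneuron development, was 4.99 to 5.57 in all D1 arrays, 7.38 to 8.72 (median 7.75) in D2 controls and 8.76 to 9.34 (median 9.10) in D2 mutants. Its difference was 1.11 ± 0.23 (adjusted p = 0.0122), and 0.0569 without D1 control saline replicate 1.

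Lhx8 belongs to a list of cholinergic interneuron markers, of which 3 of 8 were tested (Chat and Slc5a7 were not). The other two, Ecel1 (difference 0.91, adjusted p = 0.0894) and Slc18a3, the vesicular acetylcholine transporter (0.54, adjusted p = 0.362), did not pass. The mean level of the 3 ran from 6.62 to 7.73 in D2 controls and from 7.32 to 8.15 in D2 mutants, which overlap, and from 5.28 to 5.59 in D1 arrays. Whether more RNA of cholinergic cells in the D2 mutant samples had a part in the Lhx8 or Isl1 values was not tested. Pdgfra, the receptor that marks oligodendrocyte precursors, ran from 5.78 to 6.62 (median 6.16) in D2 controls and from 6.49 to 7.06 (median 6.91) in D2 mutants, which overlap, against 5.25 to 5.93 in D1 arrays. Its difference was 0.65 ± 0.15 (adjusted p = 0.0390), and the adjusted p was 0.303 with glial markers, of which it is itself 1, as a covariate.

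**Figure D2:**
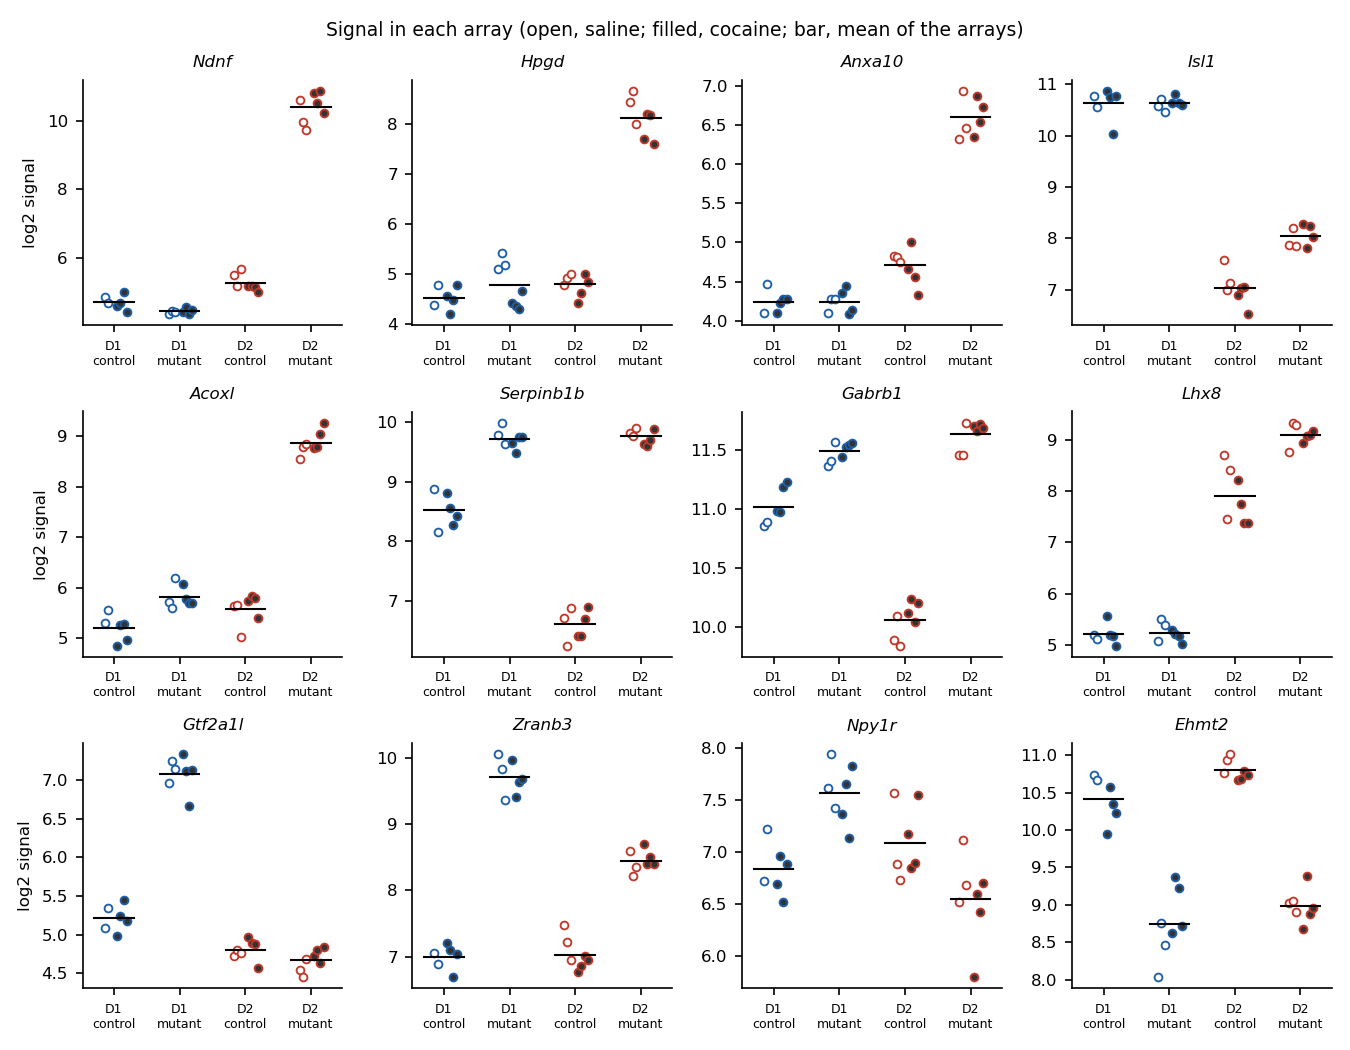
Each panel gives the log2 signal (y axis) of 1 gene in each of the 27 arrays by neuron type and genotype (x axis); open points are saline arrays, filled points cocaine arrays, and bars the mean of all arrays of the column. Ndnf, Hpgd, Anxa10 and Acoxl are high in D2 mutants, Gtf2a1l is high in D1 mutants, Npy1r moves in opposite directions and Ehmt2 falls in both.

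Acoxl led the 23 genes that rose in both neuron types and more in D2. It encodes a protein related to peroxisomal acyl-CoA oxidases, and its signal was 4.85 to 5.56 in D1 controls (median 5.28), 5.61 to 6.19 in D1 mutants (median 5.71), 5.02 to 5.84 in D2 controls (median 5.66) and 8.56 to 9.27 in D2 mutants (median 8.80). Mutants lay above controls in both. All controls were under 6 log2. The effect was 0.57 in D1 and 3.29 in D2 neurons, a difference of 2.72 ± 0.17 (limma, adjusted p = 1.23e-10). Gbe1, the glycogen branching enzyme, rose strongly in both, by 2.65 in D1 and 4.18 in D2 neurons, from control ranges of 5.70 to 6.33 and 5.36 to 6.15 to mutant ranges of 8.02 to 9.16 and 9.43 to 10.35. Its difference was 1.54 ± 0.22 (adjusted p = 2.11e-04).

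Serpinb1b, a serine protease inhibitor, began from unequal levels. D1 controls ran from 8.16 to 8.88 (median 8.50) and D2 controls from 6.25 to 6.89 (median 6.70), while D1 mutants ran from 9.48 to 9.99 (median 9.75) and D2 mutants from 9.61 to 9.91 (median 9.78). The 2 mutant groups overlapped although the control groups did not. The difference of 1.95 ± 0.17 (limma, adjusted p = 2.89e-08) is the step from a D2 minus D1 gap of -1.91 in controls to one of 0.04 in mutants. Gabrb1, the beta1 subunit of the GABA-A receptor, did likewise. It was 10.85 to 11.23 in D1 controls and 9.84 to 10.23 in D2 controls, and 11.36 to 11.57 and 11.46 to 11.73 in the mutants. Its difference was 1.07 ± 0.09 (adjusted p = 2.63e-08), and 2 further probe sets passed at 1.12 and 1.18.

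The remaining leading genes of this class are best known from lymphocytes or other blood cells. Btla, an inhibitory receptor of lymphocytes, was 4.30 to 4.98 in all controls, 4.96 to 5.53 in D1 mutants and 6.17 to 7.94 in D2 mutants, with a difference of 1.66 ± 0.26 (limma, adjusted p = 8.18e-04). Cd55, which protects cells from complement, was 4.07 to 4.89 in all controls, 5.10 to 6.23 in D1 mutants and 7.03 to 7.62 in D2 mutants, with a difference of 1.64 ± 0.22 (adjusted p = 7.94e-05) and 1.12 from a second probe set that passed. Cd2, an adhesion molecule of T cells, was 4.27 to 5.02 in all controls, 5.00 to 5.92 in D1 mutants and 6.67 to 7.54 in D2 mutants. Its difference was 1.38 ± 0.19 (adjusted p = 1.22e-04). In each of the 3 the groups were ordered alike, with D2 mutants highest and clear of D1 mutants. No list of lymphocyte markers was read, and a part of such cells in these values was not tested; of 3 microglia markers tested none had a difference that passed, and 1 was under an unadjusted p of 0.05.

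Zfp521, Plagl1, Kl and Casq2 are members of this class that also belong to lists. Zfp521, a zinc finger factor enriched in D1 neurons, was 9.08 to 9.29 in D1 controls, 9.33 to 9.54 in D1 mutants, 6.20 to 6.82 in D2 controls and 7.46 to 7.75 in D2 mutants. Its difference was 0.79 ± 0.09 (limma, adjusted p = 2.70e-06), while a second, dimmer probe set gave 0.08 and did not pass. Plagl1, an imprinted zinc finger gene, rose by 0.71 in D1 and 1.51 in D2 neurons (difference 0.80 ± 0.10, adjusted p = 1.43e-05), on a probe set with the suffix _x_at, whose probes may bind other transcripts. Kl, which encodes klotho, rose by 1.55 and 2.23 (difference 0.68 ± 0.14, adjusted p = 0.0122, 0.0804 without D1 control saline replicate 2). Casq2, the calcium store protein calsequestrin of heart muscle, rose by 0.87 and 1.54, with a difference of 0.67 ± 0.16 (adjusted p = 0.0374) that no longer passed under 5 of the alternatives described in the closing section or without 1 or another of 17 arrays.

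In D1 neurons the leading gene was Gtf2a1l, a germ-cell relative of the general transcription factor TFIIA. Its signal was 4.98 to 5.44 (median 5.21) in D1 controls and 6.67 to 7.33 (median 7.13) in D1 mutants, against 4.57 to 4.97 (median 4.80) in D2 controls and 4.45 to 4.84 (median 4.69) in D2 mutants. D1 mutants stood above all other arrays, and the D2 groups overlapped. All arrays outside the D1 mutants were under 6 log2. The effect was 1.87 in D1 neurons, and the difference was -2.01 ± 0.13 (limma, adjusted p = 1.99e-10). It was -2.09 in saline and -1.93 in cocaine arrays.

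Crct1, a cornified envelope gene of skin, was 4.25 to 4.81 in D1 controls, 5.62 to 6.28 in D1 mutants and 4.35 to 5.05 in all D2 arrays, and its difference was -1.23 ± 0.13 (limma, adjusted p = 2.77e-06). Ceacam10, a member of the carcinoembryonic antigen family, rose by 1.16 in D1 and by 0.17, which did not pass, in D2 neurons (difference -0.99 ± 0.19, adjusted p = 0.00720). Its second probe set gave -0.87 and did not pass, with effects of 1.65 and 0.79. Cd52, a surface glycopeptide of lymphocytes, was 4.90 to 5.37 in D1 controls, 5.47 to 6.67 in D1 mutants and 4.57 to 5.18 in all D2 arrays, with a difference of -0.92 ± 0.17 (adjusted p = 0.00538). Krt73, a hair follicle keratin, and Khdrbs2, an RNA-binding splicing regulator, both had differences of -0.72 (adjusted p = 0.00911 and 0.00538). Khdrbs2 had the groups overlapping in D1 neurons, 7.62 to 8.01 in controls and 7.89 to 8.69 in mutants, and its probe set ends in _s_at. Htr1d, a serotonin receptor, rose by 0.26 in D1 neurons and had an effect of -0.18 in D2, with a difference of -0.44 ± 0.10 (adjusted p = 0.0319) that was lost without 1 or another of 9 arrays. Further probe sets of Htr1d gave -0.21 and -0.31 and did not pass. Of these 7 genes, Gtf2a1l, Crct1, Cd52 and Khdrbs2 passed in every alternative that tested them.

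Rises in both that were larger in D1 neurons were led by Cst12 and Zranb3. Cst12, a cystatin-like protease inhibitor of the testis, was 4.06 to 4.45 (median 4.39) in D1 controls and 5.61 to 7.14 (median 6.26) in D1 mutants, against 4.25 to 4.63 (median 4.32) and 4.89 to 5.41 (median 5.16) in D2 neurons. All of its controls and D2 mutants were under 6 log2. The effect was 2.11 in D1 and 0.75 in D2 neurons (difference -1.36 ± 0.24, limma, adjusted p = 0.00272). Zranb3, a DNA translocase of replication fork repair, was 6.69 to 7.21 (median 7.05) in D1 controls, 9.36 to 10.06 (median 9.68) in D1 mutants, 6.77 to 7.47 (median 6.96) in D2 controls and 8.21 to 8.70 (median 8.40) in D2 mutants. Its controls overlapped and its 2 mutant groups did not. The rise was 6.58-fold against 2.62-fold, the difference was -1.33 ± 0.16 (adjusted p = 1.53e-05), and a second probe set passed at -0.79. The sugar transporter relative Slc5a4b (-0.67), the muscle LIM protein Pdlim3 (-0.67), the cornified envelope precursor Sprr1a (-0.62) and the lymphocyte protein Cytip (-0.58) followed with adjusted p from 0.0211 to 0.0436. Each of these 4 lost the call without at least 2 of the arrays, taken singly, and with glial markers as a covariate. A second probe set of Cytip gave -0.61 and did not pass.

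Falls in D2 neurons alone were led by Rassf3, a Ras-association domain protein. Its signal was 8.35 to 9.38 (median 9.07) in D1 controls, 8.90 to 9.53 (median 9.18) in D1 mutants, 6.86 to 7.83 (median 7.27) in D2 controls and 5.86 to 6.80 (median 6.38) in D2 mutants, which lay below D2 controls without overlap. The difference was -1.08 ± 0.21 (limma, adjusted p = 0.00922), but a second probe set gave -0.10 (adjusted p = 0.853). Next came the kinase Pak6 (-0.79, adjusted p = 0.00922), the zinc finger gene Zfp775 (-0.77, 0.0101), the orphan receptor Gpr149 (-0.74, 0.0211), the netrin receptor Unc5a (-0.62, 0.0301) and the apoptosis protease Casp9 (-0.51, 0.0436). In all 5 the D2 mutant and control ranges overlapped, and each lost the call without at least 1 array. A second probe set of Gpr149 passed at -0.77. That of Pak6 gave -0.35 and did not pass, and 2 further ones of Casp9 gave -0.04 and 0.08. Of the 17 genes of this class 2 had D2 mutants clear of D2 controls, Rassf3 and Efnb3. As with the rises, this count adds no evidence, and its share over all genes tested is not given. Efnb3, an ephrin that guides axons, was 10.05 to 10.58 in D2 controls and 9.58 to 10.02 in D2 mutants, against 9.72 to 10.22 in D1 arrays, with a difference of -0.43 ± 0.10 (adjusted p = 0.0280). Its call was lost without 1 or another of 5 arrays, with both drugs pooled and with glial markers as a covariate (adjusted p = 0.0637).

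The smallest classes held few genes. Fst, which encodes follistatin, an inhibitor of activin, fell in both and more in D1 neurons: from 7.51 to 8.09 in controls to 5.57 to 6.66 in mutants, against 9.83 to 10.40 and 8.89 to 9.65 in D2 neurons. The difference was 0.85 ± 0.20 (limma, adjusted p = 0.0313), lost without 1 or another of 8 arrays, and a second probe set gave 0.15. Marveld3, a tight junction protein, fell by 0.85 in D1 and by 1.47 in D2 neurons (difference -0.61 ± 0.12, adjusted p = 0.0101, and 0.0656 without D1 control saline replicate 1). The ubiquitin ligase subunit Fbxo27 (-0.34, adjusted p = 0.0221) and the dynein adaptor Hook2 (-0.49) also fell in both and more in D2. With the glial covariate their adjusted p was 0.0579 and 0.0833, and the call was lost without 1 or another of 2 arrays for Fbxo27 and of 24 for Hook2. Med17, a Mediator subunit, fell by 0.24 in D1 neurons alone (difference 0.37 ± 0.09, adjusted p = 0.0438). Its call was lost without 1 or another of 22 arrays, with glial markers as a covariate (adjusted p = 0.165) and on leaving out the 3 arrays with high Ttr (0.0927).

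Npy1r, a neuropeptide Y receptor, was the 1 gene that passed in opposite directions. It rose in D1 neurons, from 6.52 to 7.22 (median 6.81) to 7.14 to 7.94 (median 7.62), and fell in D2 neurons, from 6.73 to 7.57 (median 6.90) to 5.80 to 7.11 (median 6.60). Mutants overlapped controls in both. The effects were 0.71 ± 0.17 (limma, adjusted p = 0.0129) and -0.51 ± 0.16 (adjusted p = 0.0364), and the difference was -1.22 ± 0.24 (adjusted p = 0.00720, and 0.0556 without D1 control saline replicate 1). Ctbp2, a transcriptional corepressor, passed in neither, with -0.27 in D1, 0.24 in D2 neurons and a difference of 0.51 ± 0.12 (adjusted p = 0.0313, and 0.122 with the glial covariate).

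**Figure D3:**
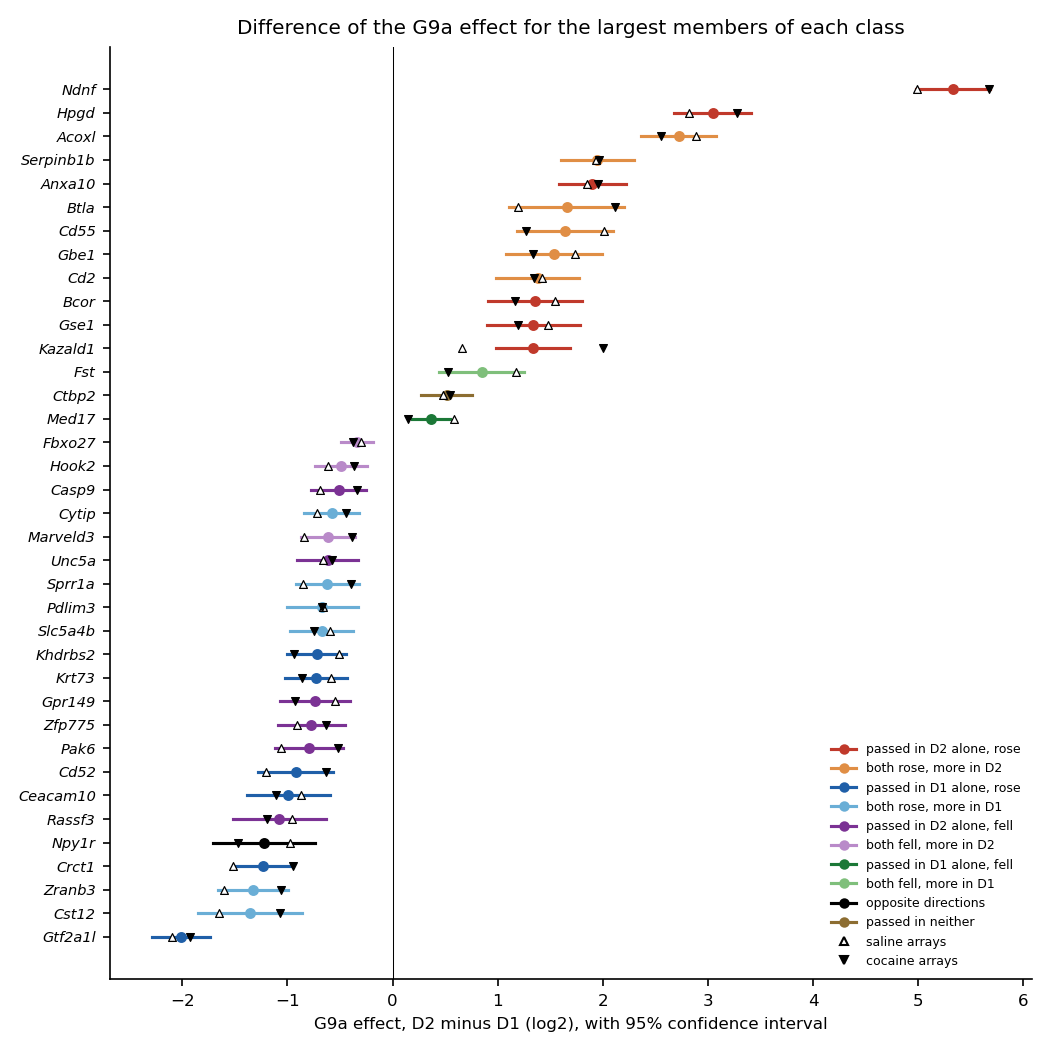
For the largest members of each class the plot gives the difference of the G9a effect, D2 minus D1 (x axis, log2), as a point with its 95% confidence interval, and the same difference in saline arrays (open triangles) and cocaine arrays (filled triangles). Genes shown had to have the same sign under both drugs to be chosen, and they run from Ndnf at 5.33 to Gtf2a1l at -2.01.

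The difference was also read in each drug. In the 11 saline arrays 22 genes passed (0.183%) and in the 16 cocaine arrays 58 (0.483%). The 2 sets share no array, but both values come from 1 fit with a shared estimate of the spread for each gene. Their calls are therefore not independent. In all, 16 genes passed in both with the same sign, 72.7% of the saline and 27.6% of the cocaine calls. The saline count fell to 12 without D1 control saline replicate 1 or D2 mutant saline replicate 3, to 13 without D2 control saline replicate 1, and to 14 without D1 mutant saline replicate 1 or D2 mutant saline replicate 2. The cocaine count fell to 33, 37 and 36 without D1 mutant cocaine replicates 4 and 3 and D2 control cocaine replicate 1. All 119 genes had the same sign under both drugs, a property that averaging over the drugs favours. The test of whether the difference depended on drug passed for no gene (0%), with 971 genes (8.08%) at an unadjusted p under 0.05 in limma and a smallest adjusted p of 0.332.

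The markers that define the 2 neuron types were then read. Of 10 D1 medium spiny neuron markers 9 were tested, and Isl1 and Zfp521 had a higher value in D2 neurons. The mean level of the 9 was 10.76 to 11.54 in D1 arrays and 7.75 to 8.49 in D2 arrays, so the labelled types were separate. Their median difference was 0.15, against 0.01 over all genes tested. Drd1 rose in D2 neurons by 0.54 (limma, adjusted p = 0.00113), from 9.71 to 10.50 in controls to 10.29 to 10.65 in mutants, against 0.06 in D1 neurons, but its difference of 0.48 ± 0.16 did not pass (adjusted p = 0.168). Slc35d3, a transporter that aids D1 receptor trafficking, rose in D2 neurons by 0.56 (adjusted p = 0.0174), with a difference of 0.41 (adjusted p = 0.485). The peptide precursors Pdyn (-0.42) and Tac1 (0.15), the solute carrier Sfxn1 (-0.34), and the factors Ebf1 (-0.16) and Eya1 (-0.01) had differences with adjusted p from 0.173 to 0.994.

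Of 8 D2 medium spiny neuron markers tested none had a difference that passed, with 3 at an unadjusted p under 0.05 and a median of -0.12. Drd2 fell in D2 neurons by 0.49 (limma, adjusted p = 0.00315), from 12.94 to 13.60 in controls to 12.28 to 12.96 in mutants, and had an effect of 0.10 in D1 neurons. Its difference of -0.60 ± 0.16 did not pass (adjusted p = 0.0779). It did pass with array weights, with an RNA quality covariate, without the 3 arrays with high Ttr and without D1 control cocaine replicate 3. The receptor phosphatase gene Ptprm rose in both, by 0.82 and 0.55, with a difference of -0.27 (adjusted p = 0.381). Penk, the enkephalin precursor, had a difference of 0.23, the ectonucleotidase Nt5e 0.52, the orphan receptor Gpr6 -0.14, the factor Six3 0.10, the opioid receptor Oprd1 -0.12 and the kainate receptor Grik3 -0.11, with adjusted p from 0.188 to 0.937. Adora2a, Gpr52 and Sp9 were listed too and did not enter the test.

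Markers of other cells moved with the D2 comparison. The mean of 7 astrocyte and 11 oligodendrocyte lineage markers ran from 7.28 to 7.67 in D1 controls, 7.43 to 7.83 in D1 mutants, 6.99 to 7.76 in D2 controls and 7.84 to 8.14 in D2 mutants. All 7 D2 mutant arrays lay above all controls. Permuting genotype within neuron type and drug gave an effect of 0.44 in D2 (exact permutation p = 0.00143, the smallest it can give), 0.09 in D1 neurons (exact permutation p = 0.280) and a difference of 0.34 (exact permutation p = 0.0474, two-sided). By gene, 1 of the 7 astrocyte markers and 6 of the 11 oligodendrocyte lineage markers rose in D2 neurons. In D1 neurons 0 and 1 did. Of all 12017 genes tested 1011 rose in D2 and 373 in D1 neurons. As differences 0 and 1 markers passed, with 2 and 4 at an unadjusted p under 0.05 in limma, against 1474 of all genes tested. Aldoc (difference 0.68, adjusted p = 0.182), Gja1 (0.55, 0.388) and Slc1a3 (0.25, 0.450) among astrocyte genes, and the myelin genes Cnp (0.37, 0.140) and Mbp (0.55, 0.292), did not pass.

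With that mean as a covariate all 119 genes kept the sign of the difference, and 47 passed. They were 19 of the 52 that rose in D2 neurons alone, 16 of the 23 that rose in both and more in D2, 6 of the 12 that rose in D1 alone, 2 of the 7 that rose in both and more in D1, 2 of the 17 that fell in D2 alone, 1 of the 3 that fell in both and more in D2, and Npy1r. The D2 effect passed for 466 genes in that fit in place of 1470. Ndnf (5.34), Hpgd (2.89), Acoxl (2.83), Anxa10 (1.85), Gtf2a1l (-1.96) and Zranb3 (-1.43) had close to the same values. Bcor went from 1.36 to 1.06 (limma, adjusted p = 0.0252), Gse1 from 1.34 to 1.07 (0.0242) and Isl1 from 0.99 to 0.89 (0.0435). The covariate differs between the genotypes in D2 neurons, so it also takes up part of any effect of G9a that runs with it. The 3′ to 5′ ratio of control probe sets, a sign of RNA quality, ran from 1.96 to 2.90 on the log2 scale over all arrays, with a difference of -0.10 (exact permutation p = 0.620).

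**Figure D4:**
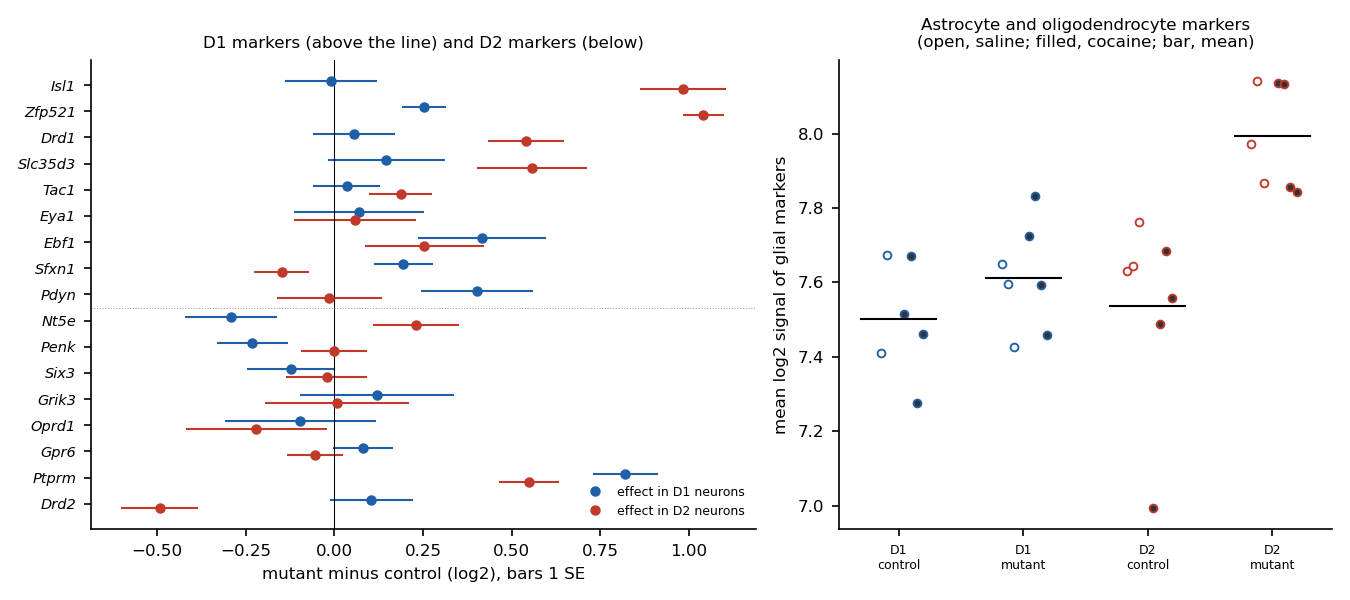
On the left, the mutant minus control effect (x axis, log2, bars 1 SE) is given for 9 D1 and 8 D2 markers in D1 neurons (blue) and D2 neurons (red); Isl1 and Zfp521 are the 2 whose difference passed. On the right, the mean log2 signal of 18 glial markers is given for each array by neuron type and genotype, with all 7 D2 mutant arrays above all control arrays.

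Over 29 lists of genes with a tested member, 418 genes in all, 11 genes had a difference that passed (2.63%, against 0.990% of all genes tested), spread over 9 lists, which were drawn up with earlier results of these data known. Outside the lists of cell markers they were Gabrb1, Plagl1 and Casq2, and also Unc5a and Efnb3 among 44 axon guidance genes (2 lower, 0 higher, median -0.04) and Htr1d among 10 monoamine, acetylcholine and adenosine receptors. Epha4, a further guidance receptor, had a difference of 0.47 (limma, adjusted p = 0.130). Of 9 GABA-A receptor subunits Gabrb1 alone passed, Gabra3 (-0.60, adjusted p = 0.332) and Gabrg1 (0.36, 0.347) did not, and the median was -0.10. Of 18 glutamate receptors and 37 potassium channels none passed. At an unadjusted p under 0.05 there were 3 and 6, against 1474 of all 12017 genes tested. Kcnj10, a potassium channel of glia (0.54, adjusted p = 0.0731), and Grm8, a metabotropic glutamate receptor (-0.83, 0.0779), came closest. The inward rectifier Kcnj4 had -0.60 (0.157). Without the 3 arrays with high Ttr Grm8 (adjusted p = 0.0251) and Kcnj4 (0.0128) passed, and Kcnj10 passed with the replicate block and with an RNA quality covariate. The 24 genes of the H3K9 methylation machinery had no difference that passed (1 at an unadjusted p under 0.05, median -0.04), nor had 19 immediate early genes (3, median 0.22), 12 neuropeptides (2, median 0.07) or 17 markers shared by both neuron types (1, median 0.01).

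Large effects of G9a loss in lists of genes of other tissues had no difference that passed. Afp, the fetal liver protein alpha-fetoprotein, rose by 6.76 in D1 and 7.45 in D2 neurons (difference 0.69 ± 0.21, limma, adjusted p = 0.129). Dach2, a developmental transcription factor, rose by 6.17 and 5.77 (difference -0.39 ± 0.14, adjusted p = 0.215). Of 12 clustered protocadherins tested, cell adhesion genes of neuronal identity, 8 rose in D1 and 5 in D2 neurons. Over all 12017 genes tested 373 and 1011 rose. No protocadherin difference passed (4 at an unadjusted p under 0.05, median -0.19). Pcdhb9 rose by 0.64 in D1 with 0.08 in D2 neurons and Pcdhb20 by 0.46 with 0.09, yet their differences of -0.56 and -0.37 had adjusted p of 0.119 and 0.133. Without the 3 arrays with high Ttr Pcdhb9 passed (-0.69, adjusted p = 0.0290). Pcdhb15 rose by 0.81 and 1.28 (difference 0.47, adjusted p = 0.210). Of 22 imprinted genes only Plagl1 passed, and Meg3 (0.57) and Ube3a (0.40) had adjusted p of 0.136 and 0.122. Of 13 muscle genes only Casq2 passed, and the troponins Tnnt1 (0.58, adjusted p = 0.182) and Tnni1 (0.81, 0.402) did not. Among liver proteins Itih3 had 0.35 and Apoa1 -0.06, among developmental factors Hoxa5 had 0.17 and Six2 -0.11, and the germline genes Dazl and Brdt had -0.04 and 0.01, with adjusted p from 0.418 to 0.988.

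The remaining lists held no difference that passed in limma. Among immediate early genes, which are switched on by neuronal activity, the values with the smallest p were 0.34 for Homer1, 0.77 for Nr4a3 and 0.56 for Egr4 (adjusted p from 0.215 to 0.277). Among neuropeptides neurotensin, Nts, had 1.26, corticotropin-releasing hormone, Crh, 0.67 and Cartpt -0.31 (adjusted p from 0.239 to 0.431). The H3K9 genes Mphosph8 (0.23), Cbx5 (-0.17) and Cdyl (0.22) had adjusted p from 0.381 to 0.478. Further glutamate receptors were Grm4 (-0.31, adjusted p = 0.167) and Grm3 (0.41, 0.212), and the potassium channel Kcna6 rose in both neuron types, by 1.25 and 1.64 (difference 0.39, 0.158). Of the markers shared by both neuron types Adcy5 had -0.25, Gpr155 0.27 and Rgs9 0.23 (adjusted p from 0.406 to 0.539).

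Of 25 cytosolic ribosomal proteins 21 were above 0, with a median of 0.10, and of 55 oxidative phosphorylation genes 44 were, with a median of 0.06, against 52.4% and a median of 0.01 over all genes tested. Under cyclic loess 21 and 36 were above 0, and under median centring 21 and 40. None passed in limma (3 and 6 at an unadjusted p under 0.05). The ribosomal genes with the smallest p were Rpl27 (0.32), Rps19 (-0.25) and Rpl14 (0.54), and those of the respiratory chain were Ndufs1 (0.33), Ndufa10 (0.27) and Cox8a (-0.29), with adjusted p from 0.141 to 0.401. Of 32 heat shock and unfolded protein genes none passed (1 unadjusted, median 0.03), with Hspb8 at 0.43, Dnajb5 at 0.32 and Atf4 at 0.18.

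Markers of further cell types were tested in small numbers, and among them only Kl passed in limma. Of 8 GABAergic interneuron markers (0 at an unadjusted p under 0.05) Th had 0.47, Lhx6 0.27 and Sst -0.11, and of 5 dopaminergic markers (0 unadjusted) Ddc had 0.58 and Nr4a2 -1.04. Of 4 cortical markers (1 unadjusted) Neurod2 had -0.44, Nrn1 0.54 and Neurod6 -0.35. Of 3 microglia markers (1 unadjusted) Ctss had 0.66, Csf1r 0.21 and Tmem119 -0.07, and of 3 endothelial and mural markers (0 unadjusted) Rgs5 had 0.41, Flt1 -0.13 and Acta2 0.06. The adjusted p of these 14 genes ran from 0.262 to 0.933. Of 3 choroid plexus markers Kl alone passed, Clic6 had 0.11, and Ttr had -0.42 (exact permutation p = 0.805).

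The difference can be read a second way, as the D2 minus D1 gap in mutants less the same gap in controls, which is the same number from the same arrays. In 97 of the 119 genes the gap was larger in size in mutants than in controls, and in 22 it was smaller. The 119 were chosen by this change of gap, so these counts describe them and add no evidence. The same counts over all genes tested are not given. The gap passed in mutants and not in controls for 63 genes, among them Hpgd (0.27 in controls and 3.31 in mutants), Acoxl (0.31 and 3.03) and Zranb3 (0.06 and -1.27). It passed in controls and not in mutants for 9, among them Serpinb1b and Gabrb1 (-0.93 and 0.14). In 37 it passed in both with the same sign, among them Isl1 (-3.58 and -2.59), Zfp521 (-2.61 and -1.82), Lhx8 (2.75 and 3.85), Fst (2.23 and 3.07) and Gpr149 (1.76 and 1.02). In 10 it passed in both with opposite signs, Plagl1 (-0.48 and 0.32) among them.

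Other probe sets of the same genes bear on single values. Of the 119 genes 48 have 1 probe set on the array, and 46 have at least 1 other that was tested. Of those 69 other probe sets 65 gave a difference of the same sign and 18 passed with it, in a fit to 20146 probe sets; for 14 genes at least 1 other passed. Taking the probe set with the largest variance in place of the highest mean left 93 calls, 79 of them among the 119. The genes that passed in every alternative that tested them and without each array in turn numbered 39: 16 of those that rose in D2 alone, 15 that rose in both and more in D2, 5 that rose in D1 alone, 2 that rose in both and more in D1 and 1 that fell in D2 alone, Rassf3. No 2 of the 119 were neighbours among the genes tested.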

How the data were processed

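Polyribosome-associated RNA from striatum was measured on 27 mouse arrays. The values used are the log2 signals the authors deposited, made by RMA (background correction, quantile normalization and summary per probe set); the submitters' processing notes name Affymetrix Expression Console 1.1. Quantile normalization sets every array to the same distribution, so a shift of most genes together would not be seen. Probe sets were named from the platform's annotation of 2016: of 45101 probe sets 34945 had 1 gene symbol, 932 several and 9160 none here, and only the first kind was used. The probe set with the highest mean over the 27 arrays stood for each gene, and genes above 6 log2 in at least 3 arrays were tested. A model with 1 mean for each of the 8 combinations of neuron type, genotype and drug was fitted with limma 3.58.1 in R 4.3.3, and p-values were adjusted by Benjamini-Hochberg over all genes. The script was tested on simulated data. The labels do not say that the samples are separate animals, so the spread behind each p-value is that of the samples as labelled and may be technical. Single values per array were tested by exact permutation of genotype within neuron type and drug, two-sided. Up to 6 genes per class by size of the difference, the D1 and D2 markers, and up to 3 genes of each other list by p are named. Those named by class also had to have the same sign of the difference in saline and cocaine arrays. The genes, lists and tests were chosen with earlier results of these data known. Alternatives were another probe set rule, other filters, cyclic loess, median centring, an intensity trend, array weights, a replicate block, pooling over drugs, RNA quality and glial covariates, a fold minimum, and leaving out arrays.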

Additional observations from a re-analysis of the deposited data

Results flagged for a closer look

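The 47 genes of the 119 that the naming rule chose passed a test of the difference itself between the neuron types, in limma. Several of these calls were lost without single arrays or with the glial covariate, as given above. The effect was higher in D2 neurons, with the log2 difference in brackets, for Ndnf (5.33), Hpgd (3.04), Acoxl (2.72), Serpinb1b (1.95), Anxa10 (1.90), Btla (1.66), Cd55 (1.64), Gbe1 (1.54), Cd2 (1.38), Bcor (1.36), Gse1 (1.34), Kazald1 (1.34), Lhx8 (1.11), Gabrb1 (1.07), Isl1 (0.99), Fst (0.85), Plagl1 (0.80), Zfp521 (0.79), Kl (0.68), Casq2 (0.67), Pdgfra (0.65), Ctbp2 (0.51) and Med17 (0.37). It was lower in D2 neurons for Gtf2a1l (-2.01), Cst12 (-1.36), Zranb3 (-1.33), Crct1 (-1.23), Npy1r (-1.22), Rassf3 (-1.08), Ceacam10 (-0.99), Cd52 (-0.92), Pak6 (-0.79), Zfp775 (-0.77), Gpr149 (-0.74), Krt73 (-0.72), Khdrbs2 (-0.72), Slc5a4b (-0.67), Pdlim3 (-0.67), Sprr1a (-0.62), Unc5a (-0.62), Marveld3 (-0.61), Cytip (-0.58), Casp9 (-0.51), Hook2 (-0.49), Htr1d (-0.44), Efnb3 (-0.43) and Fbxo27 (-0.34).

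Single arrays stood apart from the 3 others of their group in 7 of 192 sets of 4 arrays (3.65%), and chance gives about 1 in 20. In D1 control cocaine replicate 3, Bcor was at 7.59, Isl1 at 10.04 and Med17 at 8.57 log2. This is also 1 of the 3 arrays with high Ttr. Cd52 was at 4.90 in D1 control cocaine replicate 4. In D2 control cocaine replicate 4, Ndnf was at 5.01 and Slc5a4b at 4.54. Cd55 was at 5.92 in D1 mutant cocaine replicate 4.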

How the results depend on the processing

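No difference changed sign: all 119 kept theirs in every alternative that tested them, and without each array in turn. Of the 119, 41 passed without each array, and 78 lost the call without 1 or more. Under cyclic loess 63 lower differences passed in place of 40, and 37 differences in saline arrays in place of 22. With array weights 352 differences passed (203 higher, 149 lower), 969 effects in D1 and 2293 in D2 neurons. With an RNA quality covariate 67 lower differences passed, and without the 3 arrays with high Ttr, chosen after seeing the data, 70 did. With the glial covariate 51 passed (37 higher, 14 lower), and 466 effects in D2 neurons. A minimum of 1.5-fold left 76 (20 lower), 199 effects in D1 and 317 in D2 neurons. The causes of these shifts were not tested, apart from the fold minimum, which removes calls by construction. Leaving out 1 array at a time gave 50 to 139 differences (40 to 91 higher, 10 to 49 lower), 319 to 549 effects in D1 and 1114 to 1794 in D2 neurons, 12 to 33 differences in saline and 33 to 67 in cocaine arrays, and 0 for drug dependence each time. Where 1 D1 control saline array was left, it was assumed to vary like the other groups.

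Over 13 pairs of mutant and control with the same replicate number, the correlation of deviations ran from -0.375 to 0.227. It was over 0.1 in 2 pairs. With so few arrays per group, these values cannot show whether the numbers pair the arrays. With the replicate number as a block 140 differences passed (90 higher, 50 lower), 531 effects in D1 and 1524 in D2 neurons, 29 differences in saline and 59 in cocaine arrays. The D1 control saline group held 2 arrays, and no background level was measured for genes at the lower end of the signal range.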

Other observations

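Retinoid genes, chosen after their values were seen, were among the 119. Crabp2, which carries retinoic acid to the nucleus, had a difference of 0.97 (limma, adjusted p = 0.00242) with an effect of 0.92 in D2 neurons. Dhrs3, which turns retinal back into retinol, had 0.88 (adjusted p = 0.00277). Rdh10, which makes retinal, had -0.43 (adjusted p = 0.0221), with a rise of 0.33 in D1 neurons. A second probe set of Rdh10 gave -0.26 and did not pass. No list of retinoid genes was read.

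Chromatin genes, chosen in the same way, included Bahcc1 (difference 1.12, limma, adjusted p = 1.53e-05), the demethylase relative Jmjd1c (1.00, adjusted p = 9.61e-04) and the H3K4 methyltransferase Kmt2c (0.58, adjusted p = 0.0465). Other probe sets gave 0.18, 0.45 and -0.02 for Kmt2c and 0.50 for Jmjd1c, and none of these passed. Ccdc141 rose by 4.78 in D1 and 6.10 in D2 neurons, a difference of 1.31.

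Genes that separate the control neuron types were taken as the 100 with the largest gap in controls of 1 drug and read in arrays of the other drug, an analysis added after seeing the data. For D1-enriched genes the median difference was 0.14 in cocaine arrays (0.03 over all genes) and -0.16 in saline arrays (-0.02 over all genes). For D2-enriched genes it was 0.04 and 0.11. The gene list changes together with the drug it is read in, and no test was made.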
